A study of Mus musculus with 12 samples.

Results

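The 10 genes described here are Paqr9, Tlcd2, Sort1, Pdp2, Uck1, Ctsc, Gbp3, Tnfaip2, Rarres1 and Csrp3, out of 19938 genes measured in mouse liver. They were chosen from the array values themselves: each had a lower level in hypothyroid than in euthyroid control mice and a higher level in hypothyroid mutants than in hypothyroid controls. Both comparisons passed an adjusted p under 0.05 in the model described below, and both use the same 3 hypothyroid control arrays, so a low reading on those arrays enters both. Of 21789 transcript clusters (the array's unit for a gene) with a single gene symbol, 14 met both conditions. The remaining 4 were Cyp27a1, Cyp3a11, Gpd2 and Sult2a8. Each of the 10 genes had 1 cluster.

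Total RNA of 12 mouse liver samples was measured on Affymetrix gene-level arrays, 1 array a sample, in 4 groups of 3. Replicates 5, 6 and 7 were hypothyroid mutants and 17, 18 and 20 hypothyroid controls. Replicates 2, 3 and 4 were euthyroid mutants, with 13, 14 and 15 as euthyroid controls. The mutants are L-NCoR∆ID mice, whose liver carries an altered nuclear receptor corepressor NCoR. The labels do not give the genotype of the controls beyond that name, the promoter behind the liver allele, the sex and age of the mice or the way hypothyroidism was produced. The study asked what part NCoR has in turning genes up and in turning them down.

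Thyroid hormone receptors sit on their target genes with or without hormone. Without hormone they hold corepressor complexes built on NCoR, which bring histone deacetylases to the gene and keep it low. With hormone the corepressor leaves and coactivators come in. The ∆ID allele is known to lack domains through which NCoR grips nuclear receptors.

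Values are log2 signals from RMA, a method that summarises the probes of a cluster, and a difference of 1 is a 2-fold change. Levels of different clusters cannot be set against each other on this scale. Array medians lay between 4.16 and 4.32. The spread of all values on an array (SD) was 2.32 to 2.35 in hypothyroid mutants, 2.29 to 2.30 in hypothyroid controls, 2.26 to 2.31 in euthyroid mutants and 2.22 to 2.28 in euthyroid controls, so it differed between the groups compared. On the first principal component hypothyroid mutant replicate 7 (-40.1) and euthyroid control replicate 14 (54.8) stood farthest from the rest. All 7 hepatocyte markers listed (among them albumin, Alb) were above the array median on every array. The deiodinase Dio1, a classic sensor of thyroid hormone in liver, averaged 3.25 in hypothyroid mutants and 3.23 in hypothyroid controls, against 9.62 in euthyroid mutants and 8.57 in euthyroid controls.

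The 10 genes shared the highest and the lowest of the 4 group means. Hypothyroid controls had the lowest mean for 10 of 10 genes, and the rule required this against euthyroid controls and against hypothyroid mutants. Euthyroid mutants had the highest mean for 10 of 10, which the rule did not require. Of the 30 readings in hypothyroid mutants (10 genes on 3 arrays), 14 lay within the range of the 3 euthyroid controls, 10 below it and 6 above it. In euthyroid mutants 29 of 30 readings lay above that range, the exception being 1 reading of Sort1. The genes share the same 3 arrays, so these readings are not separate observations. Over all clusters, 5.05% had every euthyroid mutant above every euthyroid control.

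**Figure D1:**
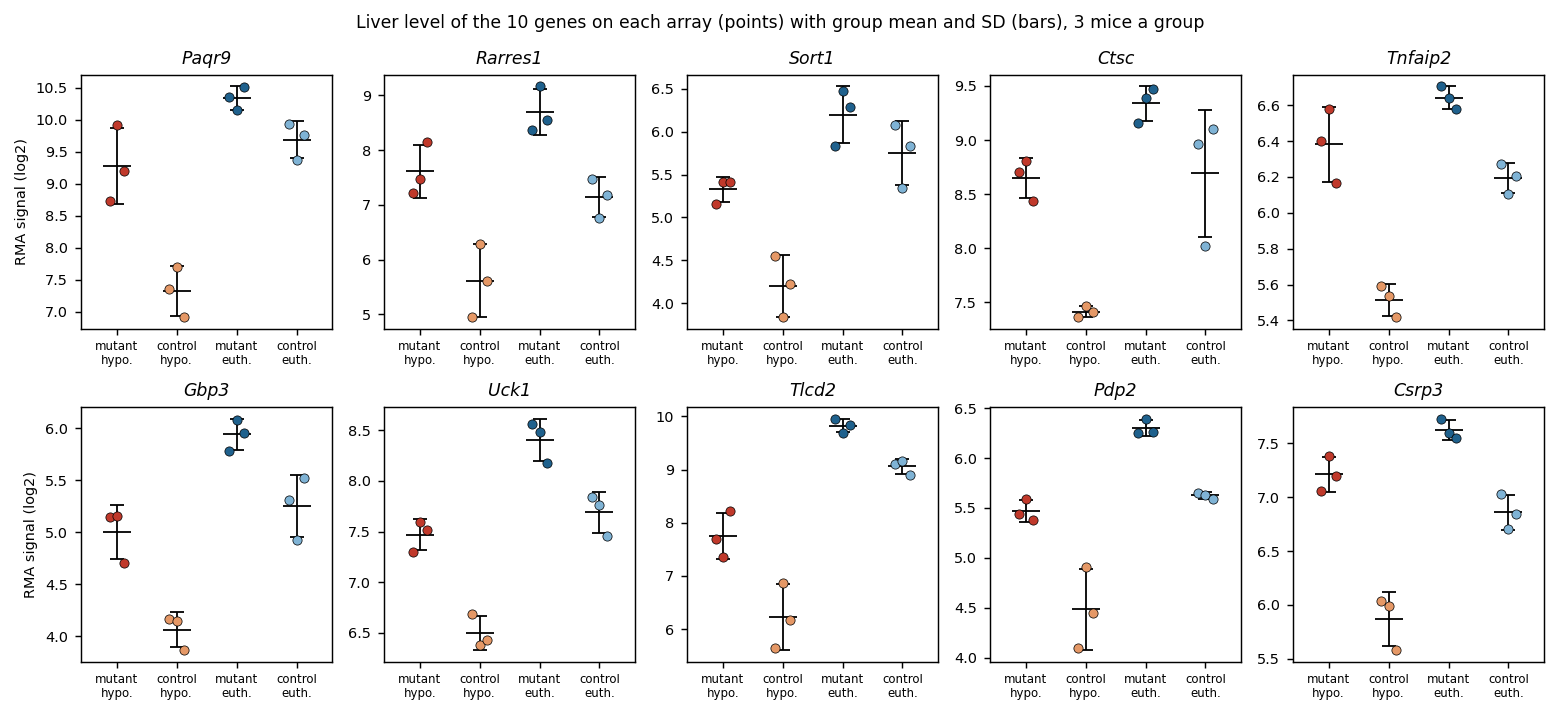
Log2 RMA signal of each of the 10 genes (1 panel a gene, each with its own axis range) in the 12 livers. Points are arrays and bars are the group mean with its SD (n = 3). Hypothyroid controls are lowest in every panel and euthyroid mutants have the highest mean in every panel.

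The region before the transcription start was read for 8 of the 10 genes from the RefSeq promoter table (GRCm38.p6), to show the sequence that stands before genes with a shared pattern. Paqr9 and Sort1 were not matched. The 8 genes had 11 windows of 250 bases upstream of a start. The half-site AGGTCA, the core of a thyroid hormone response element, was searched on both strands and was in 0 of the 11 windows, against 14% of 32851 windows of all genes. Direct repeats of it spaced by 4 bases (the classic spacing for thyroid hormone receptors), 5 bases or 1 base contain the half-site and were in 0.0152%, 0.00913% and 0.0335% of all windows. No match says only that these letters are absent from these windows.

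Other motifs searched on both strands were the STAT site TTCNNNGAA, the TATA sequence TATAAA and the GC box GGGCGG. TTCNNNGAA was in 1 of 11 windows (Ctsc, against 7.02% of all windows), TATAAA in 1 (Gbp3, against 12.4%) and GGGCGG in 4 (Rarres1, Ctsc, Pdp2 and Tnfaip2, against 32.7%). A match is a string of letters and not a bound site. The window of Tlcd2, the gene with the largest fall, is shown with those of Rarres1, Ctsc and Gbp3, which hold the motifs found (for Gbp3 the first of its 2 windows). Each runs 5′ to 3′ on the gene's strand up to the base before the start, and capitals mark the fixed letters of the motifs above.
Tlcd2, chr11:75467800-75468049, plus strand: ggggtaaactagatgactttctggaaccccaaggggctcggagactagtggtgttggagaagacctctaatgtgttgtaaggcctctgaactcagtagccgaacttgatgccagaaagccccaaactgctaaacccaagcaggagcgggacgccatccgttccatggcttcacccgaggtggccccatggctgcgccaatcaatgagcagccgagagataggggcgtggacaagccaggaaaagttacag
Rarres1, chr3:67515524-67515773, minus strand: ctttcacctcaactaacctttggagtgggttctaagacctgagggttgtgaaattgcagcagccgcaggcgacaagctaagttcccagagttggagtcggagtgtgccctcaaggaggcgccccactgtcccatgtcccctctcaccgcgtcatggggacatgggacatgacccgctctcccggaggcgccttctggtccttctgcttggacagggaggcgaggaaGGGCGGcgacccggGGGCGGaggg
Ctsc, chr7:88277835-88278084, plus strand: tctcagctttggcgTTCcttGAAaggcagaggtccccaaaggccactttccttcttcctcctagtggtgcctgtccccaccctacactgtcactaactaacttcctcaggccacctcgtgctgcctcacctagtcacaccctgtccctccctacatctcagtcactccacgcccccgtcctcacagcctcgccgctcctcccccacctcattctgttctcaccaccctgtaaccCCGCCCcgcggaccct
Gbp3, chr3:142559794-142560043, plus strand: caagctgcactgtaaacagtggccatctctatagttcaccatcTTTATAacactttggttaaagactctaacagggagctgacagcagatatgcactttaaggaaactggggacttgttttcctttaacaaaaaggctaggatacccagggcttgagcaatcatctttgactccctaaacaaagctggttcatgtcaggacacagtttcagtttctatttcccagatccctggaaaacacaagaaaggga
Tlcd2 has none of the motifs. In Rarres1 GGGCGG stands at positions -24 and -10 before the start, in Ctsc TTCCTTGAA begins at -236 and CCGCCC at -16, and in Gbp3 TTTATA begins at -207.

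The 3 genes described first each encode a membrane protein. Tlcd2 encodes a membrane protein with a TLC domain that, in human cells, limits the entry of long-chain polyunsaturated fatty acids into membrane phospholipids. Its signal was 7.69, 7.35 and 8.21 in hypothyroid mutants, 5.63, 6.87 and 6.17 in hypothyroid controls, 9.94, 9.69 and 9.85 in euthyroid mutants, and 9.10, 9.17 and 8.91 in euthyroid controls. The 4 groups did not overlap, and the hypothyroid mutants sat between both control groups. Hypothyroid controls were 7.14-fold below euthyroid controls, a log2 difference of -2.84 ± 0.256 (SE of the fit, as in all later differences), rank 14 from the lowest of 21789 clusters. Hypothyroid mutants stood 1.53 above hypothyroid controls and were still 1.31 below euthyroid controls on the log2 scale, with 3 of 3 readings below the euthyroid control range.

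Paqr9 encodes a membrane protein of the progestin and adipoQ receptor family. Its signal was 8.73, 9.91 and 9.20 in hypothyroid mutants, 7.35, 7.69 and 6.91 in hypothyroid controls, 10.35, 10.14 and 10.52 in euthyroid mutants, and 9.93, 9.37 and 9.77 in euthyroid controls. Replicate 6 of the hypothyroid mutants was inside the euthyroid control range and the other 2 were below it. Hypothyroid controls were 5.16-fold below euthyroid controls (-2.37 ± 0.259, rank 18 from the lowest), and hypothyroid mutants were 3.90-fold above hypothyroid controls (1.96 ± 0.259, rank 13 from the highest).

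Sort1 encodes sortilin, a receptor that carries proteins between the Golgi, endosomes and lysosomes and takes part in lipoprotein handling in liver. Its signal was 5.16, 5.41 and 5.41 in hypothyroid mutants, 4.55, 3.84 and 4.22 in hypothyroid controls, 5.83, 6.48 and 6.29 in euthyroid mutants, and 6.07, 5.34 and 5.83 in euthyroid controls. Euthyroid mutants and euthyroid controls overlapped for this gene alone among the 10. Hypothyroid control replicate 18 lay below its array median for Sort1, and replicate 20 only 0.02 above it, so these are low readings. The log2 difference was -1.54 ± 0.217 between hypothyroid and euthyroid controls and 1.12 ± 0.217 between hypothyroid mutants and hypothyroid controls.

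Another 2 genes encode metabolic enzymes. Pdp2 encodes a catalytic subunit of pyruvate dehydrogenase phosphatase, which removes the inhibitory phosphates from pyruvate dehydrogenase and so opens the step from pyruvate to acetyl-CoA. Its signal was 5.44, 5.59 and 5.38 in hypothyroid mutants, 4.10, 4.91 and 4.45 in hypothyroid controls, 6.25, 6.39 and 6.26 in euthyroid mutants, and 5.65, 5.63 and 5.59 in euthyroid controls. The euthyroid controls spanned less than 0.1, and the hypothyroid mutants lay at or just below them. Hypothyroid control replicate 17 lay below its array median for Pdp2. On the log2 scale the difference was -1.14 ± 0.166 between hypothyroid and euthyroid controls and 0.99 ± 0.166 between hypothyroid mutants and hypothyroid controls.

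Uck1 encodes uridine-cytidine kinase, which recycles these nucleosides into nucleotides. Its signal was 7.30, 7.60 and 7.51 in hypothyroid mutants, 6.69, 6.38 and 6.42 in hypothyroid controls, 8.56, 8.49 and 8.17 in euthyroid mutants, and 7.84, 7.77 and 7.46 in euthyroid controls. Hypothyroid mutants overlapped the lower end of the euthyroid controls. In log2 units the difference was -1.19 ± 0.152 between hypothyroid and euthyroid controls and 0.97 ± 0.152 between hypothyroid mutants and hypothyroid controls.

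A further 3 genes are best known from immune cells or from cytokine responses. Ctsc encodes cathepsin C, the lysosomal dipeptidase that activates the serine proteases of immune cell granules. Its signal was 8.70, 8.80 and 8.44 in hypothyroid mutants, 7.36, 7.46 and 7.42 in hypothyroid controls, 9.16, 9.39 and 9.47 in euthyroid mutants, and 8.96, 8.02 and 9.10 in euthyroid controls. All 3 hypothyroid mutants lay inside the range of euthyroid controls, a range widened by replicate 14 at 8.02. On average the log2 difference was -1.28 ± 0.218 between hypothyroid and euthyroid controls and 1.23 ± 0.218 between hypothyroid mutants and hypothyroid controls.

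Gbp3 encodes an interferon-inducible GTPase of the guanylate binding proteins, a family whose copies are alike enough that probes can be shared, so its level is uncertain. Its signal was 5.15, 5.15 and 4.70 in hypothyroid mutants, 4.17, 4.15 and 3.87 in hypothyroid controls, 5.78, 6.08 and 5.96 in euthyroid mutants, and 5.31, 4.92 and 5.52 in euthyroid controls. The hypothyroid controls lay below their array medians. The log2 difference was -1.19 ± 0.173 between hypothyroid and euthyroid controls and 0.94 ± 0.173 between hypothyroid mutants and hypothyroid controls.

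Tnfaip2, a gene induced by tumour necrosis factor, had a signal of 6.40, 6.58 and 6.16 in hypothyroid mutants, 5.59, 5.54 and 5.42 in hypothyroid controls, 6.71, 6.64 and 6.58 in euthyroid mutants, and 6.27, 6.11 and 6.21 in euthyroid controls. It had the smallest fall with hypothyroidism in controls among the 10 (-0.68 ± 0.129) and 2 of 3 hypothyroid mutants above every euthyroid control. Hypothyroid mutants stood 0.87 ± 0.129 above hypothyroid controls.

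The last 2 genes are a retinoid responder and a muscle protein. Rarres1, named as a retinoic acid receptor responder from human skin cells, had a signal of 7.22, 7.47 and 8.14 in hypothyroid mutants, 4.95, 6.29 and 5.60 in hypothyroid controls, 8.36, 9.17 and 8.55 in euthyroid mutants, and 7.48, 6.76 and 7.19 in euthyroid controls. Its replicates were the most spread of the 10, and its hypothyroid mutants were level with or above the euthyroid controls. On the log2 scale the difference was -1.53 ± 0.315 between hypothyroid and euthyroid controls and 1.99 ± 0.315 between hypothyroid mutants and hypothyroid controls (3.98-fold, rank 11 from the highest of 21789).

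Csrp3 encodes muscle LIM protein, a scaffold of the Z-disc in striated muscle. Its liver signal was 7.06, 7.38 and 7.19 in hypothyroid mutants, 6.04, 5.99 and 5.58 in hypothyroid controls, 7.73, 7.60 and 7.55 in euthyroid mutants, and 7.03, 6.71 and 6.84 in euthyroid controls. It was the only 1 of the 10 whose hypothyroid mutants all lay above the euthyroid control range. In log2 units the difference was -0.99 ± 0.148 between hypothyroid and euthyroid controls and 1.34 ± 0.148 between hypothyroid mutants and hypothyroid controls. Of 7 skeletal muscle markers (such as Acta1 and Ckm), 0 were called in any of the 4 comparisons. All 7 had a lower mean in hypothyroid than in euthyroid controls (median -0.49), the direction of Csrp3, and 0 of 7 had a higher mean in euthyroid mutants than in euthyroid controls (median -0.25), unlike Csrp3. In hypothyroid mutants against hypothyroid controls 2 of 7 were higher (median -0.02). The part of muscle RNA in the values of Csrp3 was not tested. Their summed signal was 6.96 to 7.10 (log2) in hypothyroid mutants, 7.02 to 7.16 in hypothyroid controls, 7.06 to 7.31 in euthyroid mutants and 7.13 to 8.02 in euthyroid controls.

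Because both of these comparisons chose the genes, their sizes describe the choice and were not tested. Of all 21789 clusters, 0.473% were called lower in hypothyroid than in euthyroid controls and 0.216% were called higher in hypothyroid mutants than in hypothyroid controls, against 10 of 10 and 10 of 10 by construction. The first share stands for 103 clusters, with 199 without euthyroid control replicate 13 and 59 without hypothyroid control replicate 20. The second stands for 47 clusters, with 111 without euthyroid control replicate 13 and 18 without hypothyroid control replicate 17. The gene nearest the threshold was Rarres1 in the first comparison (adjusted p = 0.0274 in limma) and Sort1 in the second (adjusted p = 0.047). Among clusters that passed the other comparison, the nearest outside was Chic1 in the first (-0.76, adjusted p = 0.108 in limma) and Cyp3a44 in the second (1.57, adjusted p = 0.0512). In the second comparison 1 of 10 genes, Csrp3, stayed past the threshold with the array SD as a covariate. That count was 4, 6 and 3 without hypothyroid control replicates 17, 18 and 20, and 5, 4 and 4 without hypothyroid mutant replicates 5, 6 and 7. Csrp3 and Paqr9 were in each of these 6 counts.

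The comparison of euthyroid mutants with euthyroid controls was not used by the rule and asks whether the mutation also goes with higher levels when thyroid hormone is present. It shares the euthyroid control arrays with the rule, which required them to be high relative to hypothyroid controls. It also shares the SE of each gene with the rule, which favoured small SEs, so its p-values are not independent of the choice. All 10 genes had a higher mean in euthyroid mutants, by 0.45 to 1.55 (median 0.68), while the median over all clusters was 0.00 and 50% of clusters had a difference above 0. In limma 0 of 10 were called, against 0.124% of all clusters called higher, and 9 of 10, all but Sort1, were higher and under 0.05 before adjustment, as were 4.85% of all clusters. For 9 of 10 genes the groups did not overlap, with every euthyroid mutant above every euthyroid control, and the same held for 5.05% of all clusters.

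Rarres1 had the largest of these differences, 1.55 ± 0.315, or 2.93-fold (adjusted p = 0.081 in limma, higher in 3 of 3 mutant samples). Csrp3 differed by 0.77 ± 0.148 (adjusted p = 0.0674) and Uck1 by 0.72 ± 0.152 (adjusted p = 0.104). Tlcd2 differed by 0.77 ± 0.256, Gbp3 by 0.69 ± 0.173, Pdp2 by 0.67 ± 0.166, Paqr9 by 0.65 ± 0.259 and Ctsc by 0.64 ± 0.218, with adjusted p between 0.203 and 0.583 in limma. Sort1 and Tnfaip2 both differed by 0.45. Without euthyroid control replicate 13, 3 genes were called (Csrp3, Rarres1 and Uck1), while 171 clusters were called higher and 21 lower over the whole array in place of 27 and 1. Without euthyroid control replicate 14, euthyroid mutant replicate 2 or euthyroid mutant replicate 4 the clusters called higher numbered 6, 7 and 6. Without hypothyroid control replicate 18 Rarres1 was called, and without replicate 20 Csrp3 was called.

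The comparison of hypothyroid with euthyroid mutants shows how far these genes still followed thyroid state in livers with the altered corepressor. It shares the hypothyroid mutant arrays and the SE of each gene with the rule, so its p-values are not independent of the choice. Tlcd2, Uck1, Gbp3 and Pdp2 fell in hypothyroid mutants, so 4 of 10 genes were called lower, against 0.454% of all clusters. Tlcd2 was 4.22-fold lower (-2.08 ± 0.256, adjusted p = 0.000853 in limma), Uck1 1.92-fold (-0.94 ± 0.152, adjusted p = 0.00664), Gbp3 1.91-fold (-0.94 ± 0.173, adjusted p = 0.0147) and Pdp2 1.78-fold (-0.83 ± 0.166, adjusted p = 0.0245).

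The other 6 genes had lower means in hypothyroid mutants and were not called. Paqr9 differed by -1.06 ± 0.259 (adjusted p = 0.0721 in limma), Rarres1 by -1.08 ± 0.315 (adjusted p = 0.135) and Sort1 by -0.87 ± 0.217 (adjusted p = 0.0771). Ctsc differed by -0.69, Csrp3 by -0.41 and Tnfaip2 by -0.26. All 10 genes had groups that did not overlap, with every hypothyroid mutant below every euthyroid mutant, as 11.1% of all clusters did. Tlcd2 and Uck1 were called in each of the 12 fits that left out 1 array. With the array SD as a covariate none of the 4 was called and Sort1 was. The differences in that fit were -1.95 ± 0.374 for Tlcd2, -1.10 ± 0.21 for Uck1, -1.12 ± 0.24 for Gbp3 and -0.84 ± 0.239 for Pdp2, close to or larger than those above, with larger SEs. By contrast, without euthyroid control replicate 14, which is in neither group, 7 were called.

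Set side by side, the mean difference between hypothyroid and euthyroid livers was nearer 0 in mutants than in controls for 10 of 10 genes. It was -1.06 in mutants against -2.37 in controls for Paqr9, -2.08 against -2.84 for Tlcd2, -0.41 against -0.99 for Csrp3 and -0.26 against -0.68 for Tnfaip2. For Gbp3 it was -0.94 against -1.19, and for Uck1 -0.94 against -1.19. The difference between these differences contains the comparison that chose the genes, so it was not tested.

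**Figure D2:**
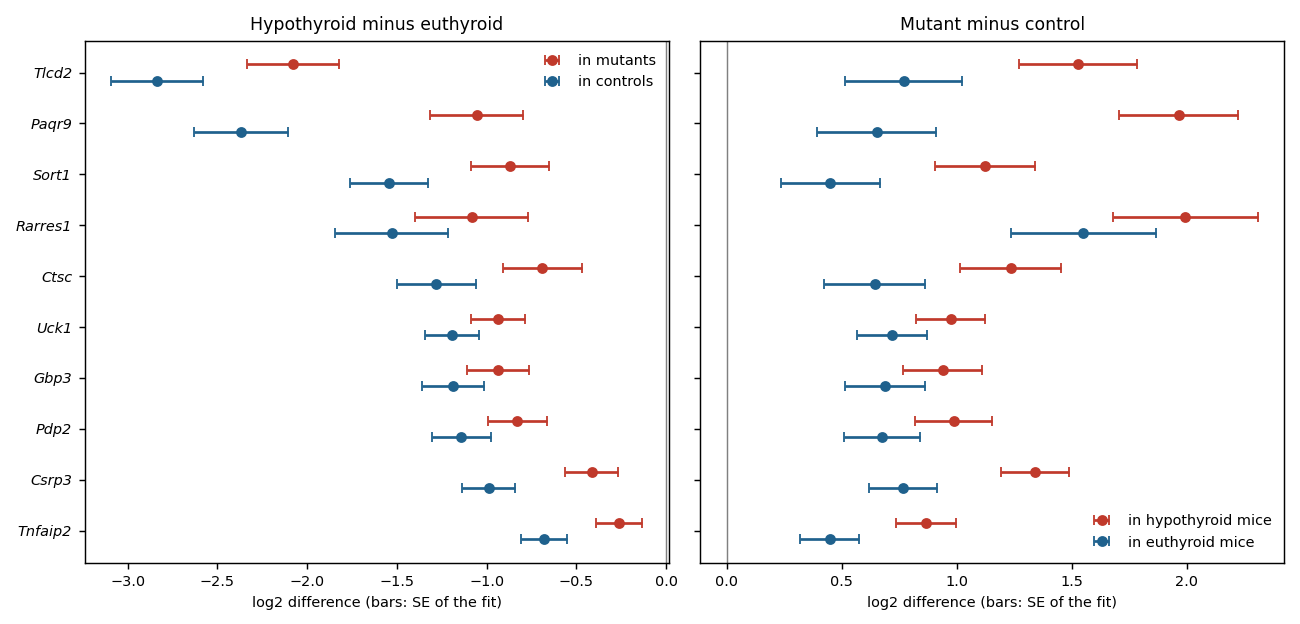
Log2 differences of the 10 genes with the SE of the fit. The left panel gives hypothyroid minus euthyroid in mutants and in controls, and the right panel gives mutant minus control in hypothyroid and in euthyroid mice. The fall of Tlcd2 is the largest in both genotypes (-2.08 in mutants and -2.84 in controls), and all euthyroid differences between genotypes are above 0 (0.45 to 1.55).

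Markers of resident liver macrophages had mean differences of the same signs as the 10 genes. The summed signal of 10 Kupffer cell markers was 8.91 to 9.84 (log2) in hypothyroid mutants, 8.88 to 8.998 in hypothyroid controls, 9.78 to 10.86 in euthyroid mutants and 9.41 to 9.63 in euthyroid controls. Of the 10 markers, 9 were higher on average in hypothyroid mutants than in hypothyroid controls (0 called), 10 were higher in euthyroid mutants than in euthyroid controls (0 called), 10 were lower in hypothyroid than in euthyroid controls (0 called) and 10 were lower in hypothyroid than in euthyroid mutants (1 called). The 1 called marker was Clec4f (-1.06, adjusted p = 0.0489 in limma). Their median difference between hypothyroid mutants and hypothyroid controls was 0.44, against -0.02 over all clusters. In RNA of whole liver, fewer cells of a type and less RNA per cell cannot be told apart. The part of Kupffer cells in the values of Ctsc, Gbp3, Tnfaip2 or the other 7 genes was not tested. All 4 neutrophil markers were below the array median on all 12 arrays, as were 4 of 6 lymphocyte markers (Cd79a, Nkg7, Ms4a1 and Gzma).

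**Figure D3:**
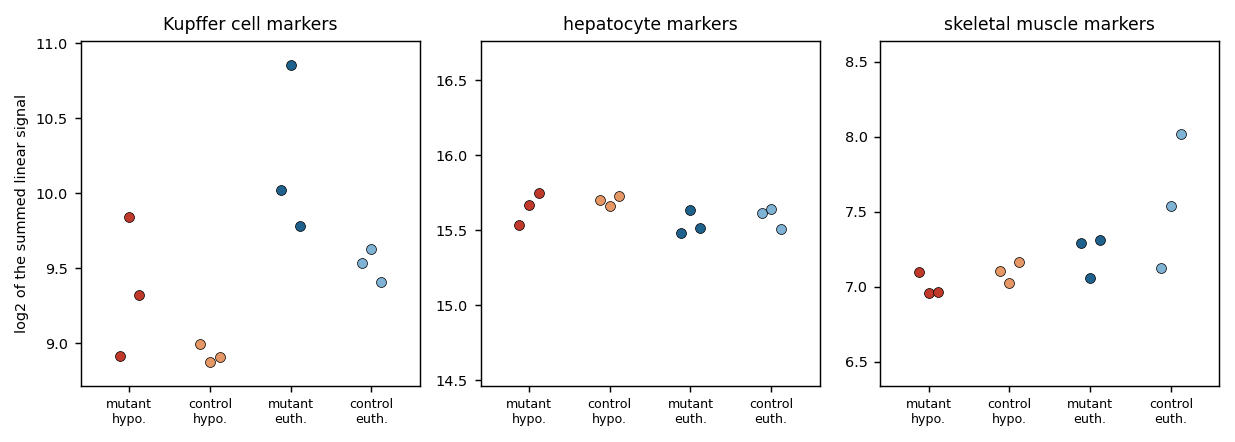
Log2 of the summed linear signal of 3 marker lists on each array, with the same span on each vertical axis. Kupffer cell markers reach their highest readings in euthyroid mutants (9.78 to 10.86) and their lowest in hypothyroid controls (8.88 to 8.998), skeletal muscle markers have their highest readings in euthyroid controls (7.13 to 8.02), and hepatocyte markers stay between 15.48 and 15.75 on all 12 arrays.

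Of 124 other genes measured from 11 lists of families and pathways, 6 (4.84%) were called higher and 0 lower in hypothyroid mutants than in hypothyroid controls, against 0.216% and 0.0459% of all clusters. Leaving out the list of thyroid hormone induced genes, it was 2 of 110 (1.82%), both in the list around Pdp2. None of these 6 was in the family list of Paqr9, Sort1, Ctsc, Gbp3, Tnfaip2, Uck1, Tlcd2, Csrp3 or Rarres1. The median difference over the 124 genes was 0.03. All lists were chosen with earlier results of these data known. Gpd2, among the 6, also met both conditions of the rule, so no enrichment is read from these shares.

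In the progestin and adipoQ receptor family, 0 of 10 relatives of Paqr9 were called in hypothyroid mutants against hypothyroid controls. Mmd fell with hypothyroidism in mutants (-1.09 ± 0.139, adjusted p = 0.00107 in limma) and in controls (-1.45 ± 0.139, adjusted p = 5.69e-05), and stood 0.50 above controls in hypothyroid mutants (adjusted p = 0.228). Mmd2 fell in mutants (-1.83 ± 0.309, adjusted p = 0.00819). In controls it had a lower mean with hypothyroidism and was not called (-1.28 ± 0.309, adjusted p = 0.0607). Of 10 other genes listed with Sort1, 0 were called in any comparison. That list held sorting receptors and their partners, and also Psrc1 and Celsr2, which are neither. Of the 10, 3 (Psrc1, Sorcs1 and Sorcs3) were below the array median on all 12 arrays and Celsr2 on 6, so a change in them could be missed. Of 9 other measured proteins with a TLC domain (15 listed with Tlcd2) 0 were called, and Tlcd1, closest to Tlcd2 by name, differed by 0.49 (adjusted p = 0.441). Cers3 and Cers5 of this list and Paqr8 were also below the array median on all 12 arrays, so a change in them could be missed.

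Around Pdp2, the enzymes of the pyruvate dehydrogenase complex and its regulators included 2 of 11 genes that rose in hypothyroid mutants against hypothyroid controls. These were the kinase Pdk4, which opposes Pdp2 (1.81 ± 0.353, adjusted p = 0.0493 in limma), and the complex subunit Dlat (0.89 ± 0.17, adjusted p = 0.043). Dlat also rose in hypothyroid against euthyroid mutants (0.81 ± 0.17, adjusted p = 0.0297), where Pdp2 fell. Pdp1, the other catalytic phosphatase subunit, differed by -0.08 between hypothyroid mutants and hypothyroid controls. In hypothyroid against euthyroid controls the kinase Pdk1 rose (1.01 ± 0.211, adjusted p = 0.0306). Of 17 other genes of pyrimidine salvage and breakdown 0 were called in any comparison, and Uck2, the second kinase of the family, differed by 0.06 in hypothyroid mutants against controls.

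Of 14 other genes induced by interferon gamma, 13 had a higher mean in hypothyroid mutants than in hypothyroid controls (0 called, median 0.45, against -0.02 over all clusters), and 2 fell in hypothyroid against euthyroid controls. These were the immunoproteasome subunit Psmb8 (-0.71 ± 0.141, adjusted p = 0.0235 in limma) and the chemokine Cxcl9 (-0.95 ± 0.209, adjusted p = 0.039). Of 14 other cathepsins and cystatins 0 were called. The nearest in size was Ctss, a cathepsin of macrophages, at 0.86 in hypothyroid mutants against controls (adjusted p = 0.24). Of 11 other genes induced by tumour necrosis factor 0 were called, with a median of -0.06. The interferon gamma list held 20 genes, Gbp3 among them, and 14 besides Gbp3 were measured. Gbp5, Ciita, Ctsk, Ctsw, Ccl2 and Traf1 were below the array median on all 12 arrays, so a change in them could be missed.

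Of 9 other retinoid responsive genes 0 were called, though Cyp26a1, the hydroxylase that clears retinoic acid, differed by 2.14 in hypothyroid mutants against controls (adjusted p = 0.244). Lxn, a relative of Rarres1, and Crabp2 were below the array median on all 12 arrays, so no difference is read from them. Among 5 other LIM proteins of the Csrp and Crip families 0 were called, and all 5 differences were below 0 in hypothyroid mutants against controls (median -0.19).

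**Figure D4:**
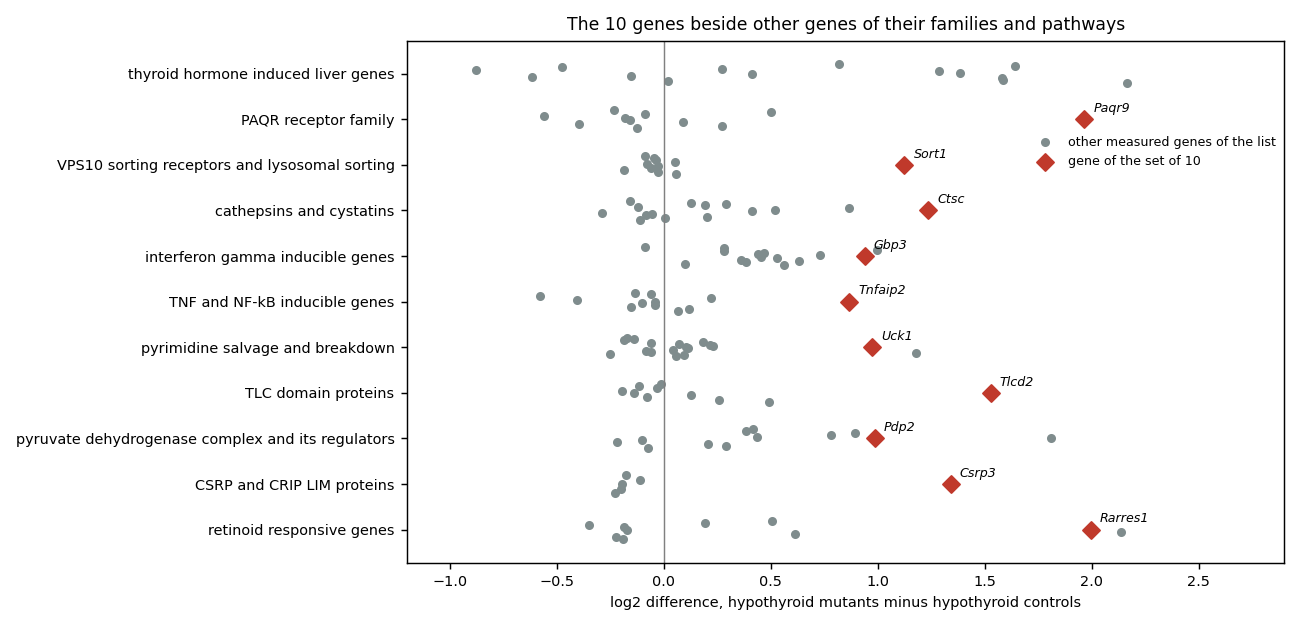
Log2 differences between hypothyroid mutants and hypothyroid controls for the 10 genes (diamonds, named) and for the other measured genes of 11 lists (grey points, 1 row a list). Grey points of most family rows lie on both sides of 0. Most lie above 0 in the interferon gamma row (median 0.45) and in the pyruvate dehydrogenase row (median 0.38). Single genes of the family rows reach 2.14 (Cyp26a1) and 1.81 (Pdk4), and the thyroid hormone induced genes spread from below 0 to 2.16 (Thrsp).

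Of 14 classic thyroid hormone induced liver genes, 4 rose in hypothyroid mutants against hypothyroid controls, and 1 of these, Gpd2, the mitochondrial glycerol phosphate dehydrogenase, also fell in hypothyroid controls (-1.62 ± 0.208, adjusted p = 0.000755 in limma). The other 3, Thrsp, Me1 and Fasn, were lipogenic genes that differed by -0.73, 0.12 and -0.15 between hypothyroid and euthyroid controls and were not called there. In euthyroid mutants against euthyroid controls these 3 were called higher as well, by 2.07, 1.55 and 1.22. Their adjusted p in limma was 0.0107, 0.0107 and 0.0333. No other gene of the 124 was called in that comparison, where Gpd2 differed by 0.59. Dio1 had the largest fall of the list in hypothyroid controls (-5.34 ± 0.21) and differed by 0.02 between hypothyroid mutants and hypothyroid controls. It was below the array median on 6 of the 12 arrays, and both hypothyroid means (3.25 in mutants and 3.23 in controls) are low readings from which no order is read. In hypothyroid against euthyroid controls 5 of the 14 were called lower, namely Dio1, Cyp7a1, Gpd2, Idh3a and Bcl3. Gpd2 was the 1 gene of this list that met both conditions set for the 10.

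The gene whose profile over the 12 arrays was most like the mean of the 10 was Idh3a, a subunit of the citric acid cycle enzyme isocitrate dehydrogenase (Pearson r = 0.959, given as a description). Idh3a is also on the list of thyroid hormone induced genes above. It fell in hypothyroid mutants against euthyroid mutants (-0.80 ± 0.168, adjusted p = 0.0316 in limma) and in hypothyroid against euthyroid controls (-1.08 ± 0.168, adjusted p = 0.00359), and differed by 0.82 between hypothyroid mutants and hypothyroid controls (adjusted p = 0.0645). Gpd2 (0.954), the NAD kinase gene Nadk (0.954), the sulfotransferase Sult2a8 (0.951) and the calcium sensor Stim2 (0.948) came next. The profile of Paqr9 alone was most like those of Cyp2f2 (0.962), Sult2a8 (0.96) and the acyl-CoA synthetase gene Acsf2 (0.949). The arrays fall into 4 groups, and each value covers differences between groups as well as within them.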

How the data were processed

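The 12 liver RNA samples were measured on 1 array each. The authors deposited log2 signals. RMA made them, as the submitters' processing notes state without version or options. The deposited table held 35557 clusters, of which the platform annotation gave 21789 exactly 1 symbol, 1621 several and 12147 none. Groups and replicate numbers come from the sample titles. Nothing says more than the titles that the samples are separate animals, so p-values measure the spread between these samples.

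limma 3.58.1 (R 4.3.3) fitted 4 group means to all 12 arrays with moderated variances (residual degrees of freedom 8, prior 6.83) and Benjamini-Hochberg adjustment over 21789 clusters within each comparison, with no filter on level. Precision is limited by the 3 arrays in a group. The fit was tested on simulated data. The deposited values have no detection calls, so a level below the array median marks a low one.

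The 10 genes and all lists were chosen with earlier results of these data known. Other genes were named by a rule: called members of a list, the most changed first (at most 4), or 2 as values where none was called. Of a list gene with several clusters the one with the highest mean was used. For marker lists, linear signals were summed. Promoter windows come from RefSeq (GRCm38.p6). The files name no build.

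Alternatives were quantile normalization, median centring, a level filter, every cluster, the compared groups alone, array SD as a covariate, array weights, leaving out both outlying arrays and leaving out each array.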

Additional observations from a re-analysis of the deposited data

How the results depend on the processing

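Every difference of the 10 genes kept its sign in the 2 comparisons that chose them and in the 2 that were tested, under all 20 alternatives run. Testing every cluster, the level filter and the compared groups alone leave the differences themselves as they were. Where groups do not overlap, leaving out or weighting arrays cannot turn the sign. Most of these signs were therefore fixed in advance, and no support is drawn from them. The number past the threshold was less stable. In hypothyroid mutants against hypothyroid controls it was 10, with 3 when every cluster of the table was tested, 1 with the array SD as a covariate, and 3 to 10 when 1 array was left out. In hypothyroid against euthyroid controls it was 10, and 8 to 10 with 1 array left out. In hypothyroid against euthyroid mutants 4 were called, 2 with every cluster, 1 with the array SD as a covariate, and 2 to 7 with 1 array left out. In euthyroid mutants against euthyroid controls 0 were called, 3 with gene-by-gene array weights and 0 to 3 with 1 array left out. Without both outlying arrays the counts were 8, 10, 3 and 0 in the same order. Over the 4 comparisons the 124 list genes had 23 calls, 9 with every cluster, 10 with the array SD as a covariate, 54 with gene-by-gene array weights, and 14 to 36 with 1 array left out (36 without euthyroid control replicate 13 and 14 without euthyroid mutant replicate 2). Over the whole array, calls in euthyroid mutants against euthyroid controls were 27 higher and 1 lower, 38 and 7 after quantile normalization, 10 and 0 with every cluster, 136 and 61 with gene-by-gene array weights, and 6 to 171 higher and 0 to 21 lower with 1 array left out (171 and 21 without euthyroid control replicate 13, 6 and 2 without replicate 14, 7 and 1 without euthyroid mutant replicate 2, and 6 and 0 without replicate 4). Testing every cluster adjusts over more tests and also changes the moderated variances. Its SE was 0.281 in place of 0.256 for Tlcd2, and 0.123 in place of 0.129 for Tnfaip2. Array SD differed between the groups, so the covariate and the groups cannot be fully told apart. The cause of the changes in these counts was not tested. The planned default array weights did not converge (29.2 for euthyroid control replicate 15 and at most 1.73 for the others) and were not used. Gene-by-gene weights were chosen after seeing the data. No paired analysis was possible because the groups share no replicate numbers.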

Other observations

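The nearest measured protein-coding genes on either side of each of the 10 genes in RefSeq order, 20 in all, were looked at after the values were seen. Of these, 0 were called in hypothyroid mutants against hypothyroid controls (median 0.00) and 0 in euthyroid mutants against euthyroid controls (median 0.14). E2f8, a repressor of the E2F family that neighbours Csrp3, was the 1 gene called lower in hypothyroid against euthyroid mutants (-1.37, adjusted p = 0.004 in limma) and in hypothyroid against euthyroid controls (-1.14, adjusted p = 0.0119), and it differed by 0.25 between hypothyroid mutants and hypothyroid controls (adjusted p = 0.665). Gbp7 and Gbp2b, on either side of Gbp3, differed by 0.38 and 0.37 between hypothyroid mutants and hypothyroid controls and were not called.

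Among euthyroid controls, replicate 13 lay above its group mean for 10 of 10 genes and replicate 14 below it for 7 of 10. Among hypothyroid controls replicate 20 lay below the group mean for 8 of 10 genes and replicate 18 for 2 of 10. The shares of all clusters above or below the group mean on these arrays were not counted. No trait of the 10 genes is therefore read from these counts. Euthyroid control replicate 14 also stood apart over all clusters (54.8 on the first principal component).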
